A study of Homo sapiens with 14 samples.

Results

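The 54 genes described here encode proteins of the spliceosome and of related small ribonucleoproteins. They were chosen by symbol from the protein-coding genes of the GENCODE annotation (symbols starting SNRP or SNRNP, or LSM, PRPF, SF3A or SF3B followed by a digit), and were 54 of 19970 such genes on chromosomes 1 to 22 and X. The measurement was chromatin immunoprecipitation with sequencing (ChIP-seq), in which DNA fragments bound by an antibody's target are sequenced and regions with more fragments than their surroundings are called as peaks. The cells were HEK293T, a human embryonic kidney line, of a single clone (HEK_CloneZD29) in which ZNF143 carries an inducible degron tag, so that both groups share the tagged gene. In the first group, 4 samples were untreated by their labels, although the peak names in that group's list carry the word DMSO, and whether a vehicle was added is not given in the labels. In the second, 4 samples had 30 min of 0.5 µM dTAG-V1, a small molecule that sends the tagged protein for degradation. Both groups were precipitated with the same Proteintech antibody raised against ZNF143, and the question of the comparison was which of the antibody's peaks depend on ZNF143, against those it gives through another protein such as CTCF. The other 6 samples of the series used a CTCF antibody and were not analysed here.

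Removal of introns from messenger RNA is carried out by the spliceosome, which assembles from the small nuclear ribonucleoproteins U1, U2, U4/U6 and U5. Each of these holds a short RNA, a ring of Sm or LSM proteins around that RNA, and proteins of its own. ZNF143 is a zinc finger transcription factor that binds promoters of housekeeping genes and of small nuclear RNA genes at a long recognition sequence called the SBS. That sequence contains the letters TCCCA and, in a subset of sites, the letters ACTACA before them. CTCF is another zinc finger protein, which binds its own sequence and holds chromatin loops in place.

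The deposited data were 2 peak lists, one for each group, with 20429 untreated peaks and 35287 dTAG-V1 peaks on these chromosomes. Each list pools its 4 samples and holds no value per sample, so no spread between samples could be given and no difference between the groups could be tested. The study's methods describe a stricter rule for untreated peaks, which had to be present in all 4 samples, than for dTAG-V1 peaks, for which any sample was enough. If the deposited lists follow it, then counts of genes with a peak, peaks in 1 list only and percentiles differ between the lists in part by rule. How far ZNF143 was depleted cannot be read from these lists. A promoter peak is a peak whose centre lay from 2 kb upstream to 1 kb downstream of any annotated transcription start site of the gene. Scores and fold enrichments are on the scale of their own list, and the read depth behind them is unknown. To place a peak, its score percentile is given, which is the percentage of peaks in the same list with a lower score, and decile 1 is the highest-scoring 10 percent of a list. Shares are given with 95% Wilson intervals, which cover counting error only, and beside each stands the share over all protein-coding genes or all their promoter peaks.

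The SBS sites of the members with the strongest untreated peaks show the sequences found under these peaks. The best-scoring SBS match in the untreated peak is printed for the 17 members in decile 1, in hg38, from 5′ to 3′ on the strand of the match, with the match in capitals and the flanks in lower case. SBS1 is an 18-base matrix of the common part and SBS2 is a 21-base matrix that includes the ACTACA part, both learned from the peaks themselves.
PRPF31, SBS2, chr19:54115391-54115420, minus strand: acaggAAACTACAACTCCCACAAGGCctag
SF3B5, SBS2, chr6:144095820-144095849, minus strand: tcccaAGACCACAAGTCCCAGCATGCaacg
SNRPD3, SBS1, chr22:24555947-24555976, minus strand: ccactcTTTCCCAAAATGCTGCGCgcaggg
PRPF4, SBS2, chr9:113275450-113275479, plus strand: aactGGACTACACTTCCCAGACTGCttgga
LSM10, SBS2, chr1:36397937-36397966, plus strand: ggagAAACTACAATCCCCAGAATGCttcgc
SNRPA, SBS2, chr19:40751164-40751193, minus strand: gagatTTACTACGACTTCCAGGATGCtcta
SF3B2, SBS2, chr11:66052153-66052182, plus strand: ctgcGCACTACAACTCCCAGGAGGCctcgc
PRPF19, SBS2, chr11:60906709-60906738, plus strand: ctcgAAACTACATTTCCCATGACGCagtga
SF3A1, SBS2, chr22:30356606-30356635, minus strand: tggagGGACTGCAAGTCCCAAGAGGCtgcg
PRPF38B, SBS1, chr1:108692188-108692217, minus strand: ttcctaGGTCCCCGCGTTCTCTGCacgctg
SNRNP48, SBS2, chr6:7590180-7590209, plus strand: gcccCGCCCACAGCTCCCAGAGGCCtgcgc
SNRPE, SBS1, chr1:203861808-203861837, plus strand: gatccaCATCCCATGAGCCCCCGGggctac
SNRNP70, SBS1, chr19:49085673-49085702, plus strand: gggccgCTACCCAGAAGCCCCAGCggtggg
SNRPA1, SBS1, chr15:101295230-101295259, plus strand: gcgagaCGTCCCAGCGTGCCCCGCgccccg
SF3B1, SBS1, chr2:197435528-197435557, plus strand: atccctTTTCCCAAAATTCACTGGaagagc
SNRNP40, SBS1, chr1:31297352-31297381, plus strand: ggcctgCGTCCCAGCCTCCTCCGGtgcccc
LSM5, SBS1, chr7:32490572-32490601, plus strand: cggcagATACCCATAATGCCCTTGaagttt
Of these 17 sites, 9 matched SBS2 best and 8 matched SBS1 best. The letters ACTACA stood in 5 of them, at PRPF31, PRPF4, LSM10, SF3B2 and PRPF19, and the letters TCCCA in 12. The match lay within 50 bp of the untreated summit, the position of highest signal in a peak, at 13 of the 17 genes. At PRPF19 the site centre was 1 bp from the summit and at SNRPD3 it was 5 bp away, whereas at SF3B1 and SNRNP40 the best sites were 361 bp and 371 bp away. The site of LSM5 was the weakest of the set, with a match p of 1.2e-05, although it was 8 bp from the summit. At PRPF31 the site overlapped annotated untranslated exon sequence of TFPT and the first bases of PRPF31. At SNRNP48 it spanned the annotated start of the gene, so that it lay only in part in untranslated exon sequence. At LSM5 it overlapped untranslated exon sequence of the gene itself, and at SF3A1 and SNRNP70 it lay in an intron of the gene. The sites of SF3B5, LSM10, PRPF19, PRPF38B and SF3B1 lay outside annotated protein-coding genes.

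A longer stretch of the PRPF19 promoter is shown because its site, on the SBS2 matrix, lay at the summit in both lists. PRPF19 is the ubiquitin ligase at the core of the PRP19 complex, which joins the spliceosome when it is activated.
PRPF19, SBS2, chr11:60906674-60906773, plus strand: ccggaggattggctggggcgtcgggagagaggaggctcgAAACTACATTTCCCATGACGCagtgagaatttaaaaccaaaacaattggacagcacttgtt

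CTCF matches lay at the summit of few member peaks. They are shown for contrast, with the match to a 16-base CTCF matrix in capitals and the list in which the match was within 50 bp of the summit. SF3B1 is given at greater length, since its CTCF match was at the summit in both lists.
SF3B1, CTCF (both lists), chr2:197435100-197435199, minus strand: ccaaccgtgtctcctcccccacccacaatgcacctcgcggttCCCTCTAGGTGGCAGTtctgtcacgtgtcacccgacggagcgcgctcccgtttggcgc
SNRPD2, CTCF (dTAG-V1 list), chr19:45693491-45693520, minus strand: tcgcacaACCAGCAGGGGGCGCAgataagt
LSM2, CTCF (dTAG-V1 list), chr6:31807113-31807142, minus strand: cacatcaCGCTGTAGATGGCAGGattctgg
SNRPA1, CTCF (dTAG-V1 list), chr15:101289085-101289114, plus strand: cacaaaaACCACCAGAGGGAGCTctagagc
PRPF39, CTCF (dTAG-V1 list), chr14:45084339-45084368, minus strand: caaacagGGCGGGAGAGGGAGGCcgcggcc
PRPF8, CTCF (dTAG-V1 list), chr17:1669500-1669529, plus strand: tacagctCCCTCTAGGTGGCATCtgatgtc
SF3B6, CTCF (untreated list), chr2:24076440-24076469, plus strand: actcgagGCCGGAAGATGGAAAGgcgagag
LSM4, CTCF (untreated list), chr19:18323874-18323903, minus strand: cctcagaGCCTCCAGAGGGAGCCaactgtg
LSM14A, CTCF (untreated list), chr19:34173505-34173534, minus strand: ccagagaGCCTCCAGAGGGATCAgtcaacg
The SF3B1 match was 32 bp from the untreated summit and 16 bp from the dTAG-V1 summit. The match at SNRPD2 lay in coding sequence of the neighbouring gene QPCTL, and those at SNRPA1, PRPF39, PRPF8 and LSM14A lay in an intron of the gene. Some of these summits had an SBS match nearby as well. At PRPF39 an SBS2 match of p 6.48e-06 covered the CTCF match, 44 bp from the dTAG-V1 summit. At LSM4 an SBS1 match of p 1.42e-06 lay 31 bp from the untreated summit. Those of SF3B1, SNRPD2 and LSM14A are given below.

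A promoter peak was present at most spliceosome protein genes in both groups. In the untreated list, 50 peaks lay at 45 of the 54 members, which is 83.3% (71.3 to 91.0), against 40.5% of all protein-coding genes. In the dTAG-V1 list, 58 peaks lay at 51 members, which is 94.4% (84.9 to 98.1), against 48.2% of all protein-coding genes. The same 45 members had a peak in both lists, 6 had one with dTAG-V1 only, none had one in the untreated list only, and 3 had none. The members also held a high place among promoter peaks. Decile 1 of the untreated list contained a promoter peak of 17 members, or 31.5% (20.7 to 44.7), against 10.1% of protein-coding genes, and decile 1 of the dTAG-V1 list one of 23 members, or 42.6% (30.3 to 55.8), against 13.4%.

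Member peaks were wider and of higher enrichment than promoter peaks at large. The median score percentile was 81.1 for the 50 untreated member peaks and 62.1 for the 7702 untreated promoter peaks of all protein-coding genes. With dTAG-V1 it was 83.1 for 58 member peaks and 52.3 for 10296 promoter peaks. Median fold enrichment over local background was 9.52 at members and 4.35 at all promoters in the untreated list, and 4.77 and 3.24 in the dTAG-V1 list. Median widths were 712 bp against 490 bp untreated, and 688 bp against 505 bp with dTAG-V1. These are differences between groups of genes within a list, and no test of them was made. A further 61 genes of the pathway, from a list of other spliceosome and splicing factor genes, were close to the members: 52 of them had a promoter peak untreated (85.2%, 74.3 to 92.0) and 54 with dTAG-V1 (88.5%, 78.2 to 94.3), with 15 and 25 in decile 1.

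**Figure D1:**
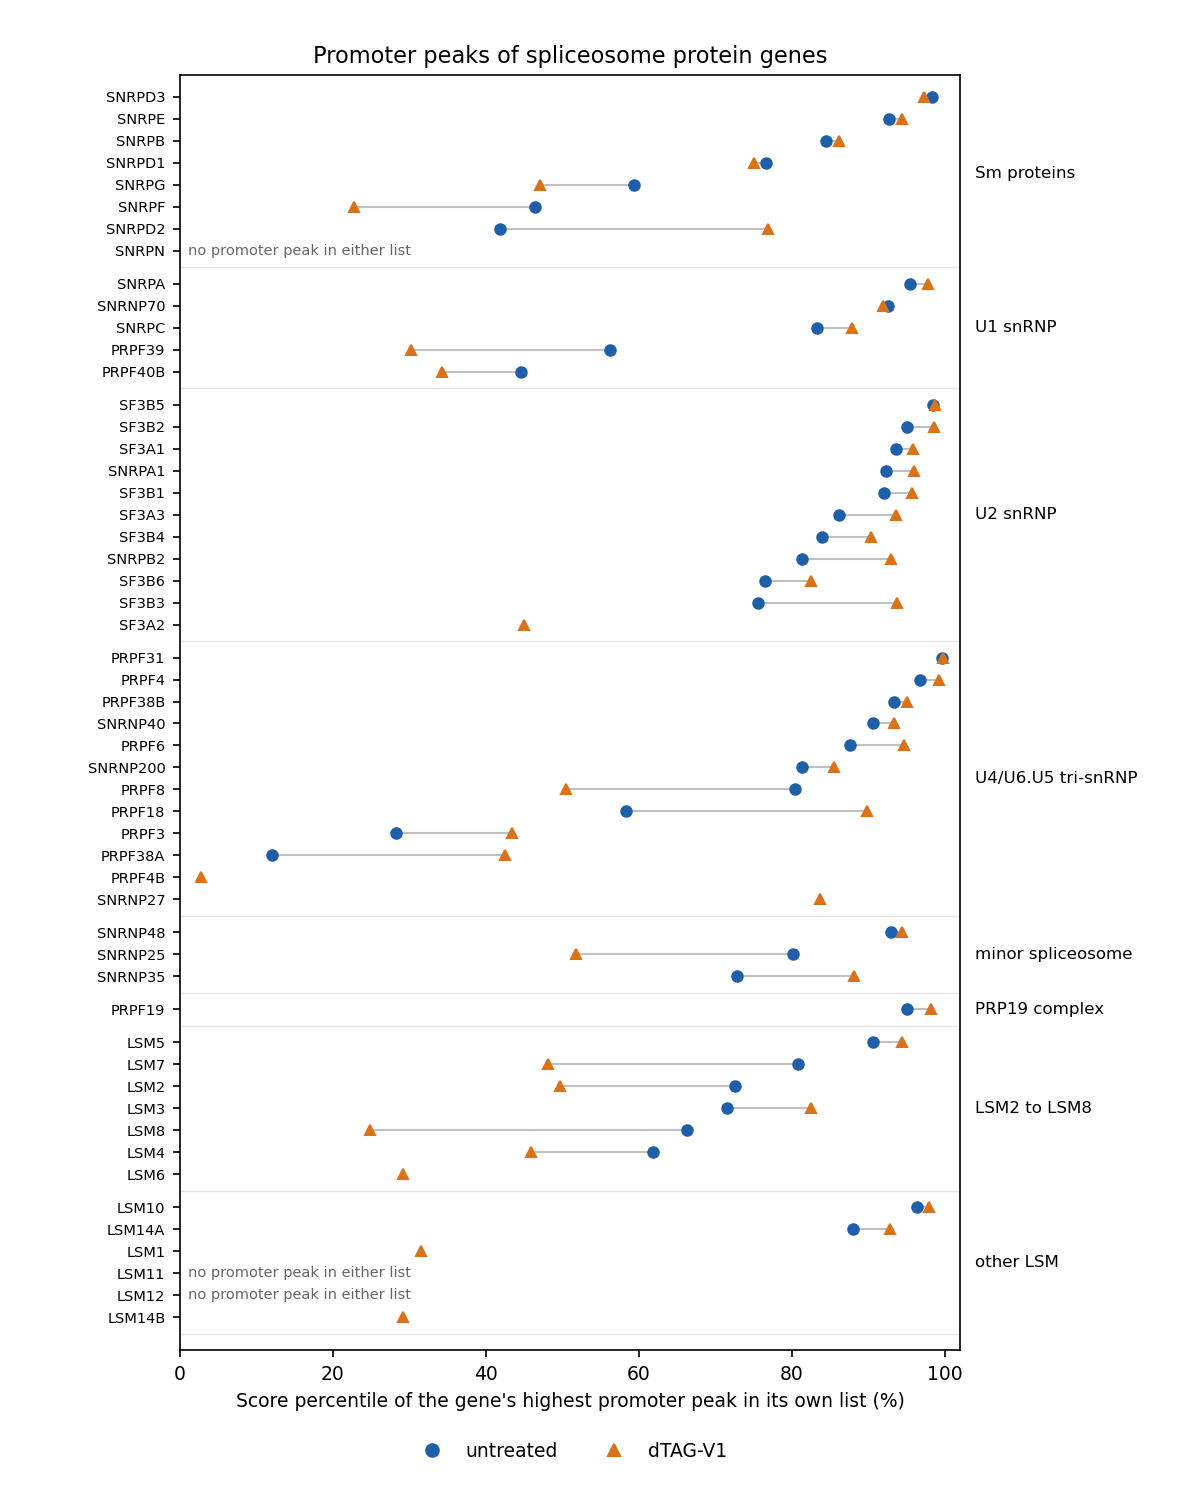
Score percentile of the highest promoter peak of the members named here in the untreated list (circles) and the dTAG-V1 list (triangles), by role, with a grey line joining both values of a gene. The horizontal axis is the percentage of peaks in the same list with a lower score. PRPF31 stands at 99.7 in both lists, and LSM11, LSM12 and SNRPN have no promoter peak.

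By role, the members differed in how many reached the top of the lists. The U2 proteins, which recognise the branch point of the intron, had a peak at 10 of 11 genes untreated and 11 of 11 with dTAG-V1, and reached decile 1 at 5 and 9 genes. The proteins of the U4/U6.U5 tri-snRNP, which carries the catalytic machinery, had peaks at 10 and 12 of 12 genes and reached decile 1 at 4 and 5. Peaks of the LSM2 to LSM8 genes, whose products form the ring on U6 RNA, were at 6 and 7 of 7 genes, but only LSM5 was in decile 1 in each list. Among the LSM genes outside that ring, 2 of 6 had a peak untreated and 4 of 6 with dTAG-V1. These last genes act elsewhere: LSM1 in messenger RNA decay, LSM10 and LSM11 in the U7 particle that trims histone messages, and LSM14A and LSM14B in cytoplasmic granules. The groups are small, from 1 to 12 genes, so that differences between roles of this size rest on very few genes.

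**Figure D2:**
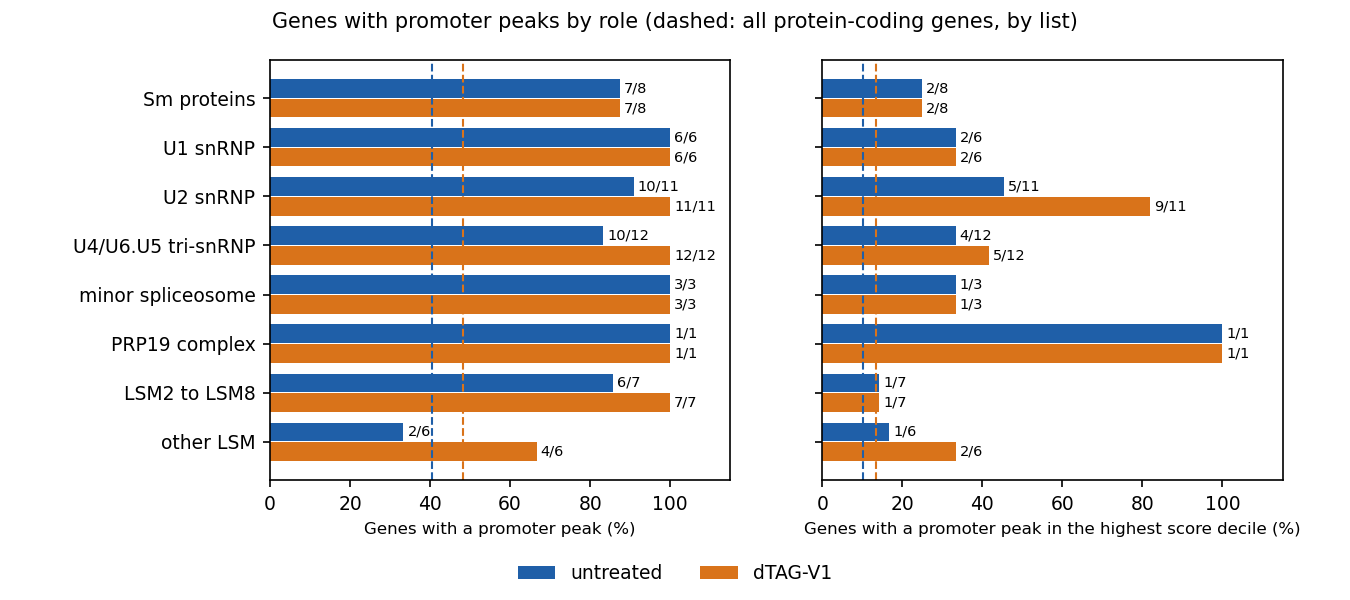
Percentage of genes of each role with a promoter peak (left) and with a promoter peak in the highest score decile (right), for the untreated and dTAG-V1 lists. Numbers beside bars are genes over genes in the role, and dashed lines give all protein-coding genes, at 40.5% and 48.2% on the left and 10.1% and 13.4% on the right.

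Among the tri-snRNP genes, PRPF31, a protein of the U4/U6 particle, had the highest-ranking peak of all members. Its peak at chr19:54115077-54115839 ranked 60 by q-value in the untreated list with 32.7-fold enrichment, and 94 in the dTAG-V1 list with 29.8-fold enrichment. That peak lay in the promoter window of TFPT as well, as the genes share a start region. PRPF4, its partner in the U4/U6 particle, ranked 665 untreated at 24.5-fold and 252 with dTAG-V1 at 26.2-fold, in a peak shared with CDC26. PRPF38B was at percentile 93.4 untreated and 95.1 with dTAG-V1, and SNRNP40, a U5 protein, at 90.7 and 93.4, in a peak shared with ZCCHC17. The 4 genes thus kept a place in decile 1 in each list. PRPF6, which bridges U5 to U4/U6, had 16.9-fold enrichment untreated, at percentile 87.6, and 12.1-fold with dTAG-V1, at percentile 94.7. SNRNP200, the helicase that unwinds U4 from U6, stood at percentile 81.4 and 85.6.

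The remaining tri-snRNP genes had lower peaks. PRPF8, the scaffold of the catalytic centre, had a promoter peak 720 bp downstream of its canonical start at percentile 80.4 untreated, which stood at percentile 50.5 with dTAG-V1. A separate peak in an intron of PRPF8, over the start of an alternative transcript about 15 kb inside the gene (summit 15299 bp from the canonical start), stood at percentile 51.1 and 23.8. PRPF18, which acts in the second step of splicing, moved the other way, from percentile 58.3 untreated to 89.8 with dTAG-V1. PRPF3 was at percentile 28.3 and 43.5. PRPF38A, whose promoter is shared with ORC1, was at 12.0 and 42.5, the lowest place of any member's highest peak in the untreated list. The kinase PRPF4B and SNRNP27 had a promoter peak with dTAG-V1 only, as described further on.

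Peaks of the U2 genes were high in both lists, with a median percentile of 89.1 untreated and 93.8 with dTAG-V1 over the highest peak of each gene. SF3B5, a small subunit of the SF3B complex, ranked 322 untreated with 27.5-fold enrichment and 450 with dTAG-V1 with 23.2-fold enrichment. SF3B2 had 29.3-fold and 28.6-fold, at percentiles 95.1 and 98.6, with the summit at the same base in each list. SF3A1, in a peak shared with CCDC157, had 28.2-fold and 15.5-fold at percentiles 93.6 and 95.8. These SF3A and SF3B proteins bind the branch point region together. SNRPA1, the U2 protein A′, had 19.6-fold and 13.0-fold at percentiles 92.3 and 96.0. SF3B1, the large subunit that clamps the branch point, had 24.6-fold and 15.1-fold at percentiles 92.1 and 95.7. Its nearest SBS match at p 1e-05 lay 361 bp from the untreated summit, while the CTCF match shown above lay 32 bp from it. A weaker SBS1 match, of p 1.37e-05, at chr2:197435164-197435181, lay 7 bp from the dTAG-V1 summit. The same match ended next to the untreated summit, at position 197435182, so that matches of both kinds were near each summit.

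A further 4 U2 genes were in decile 1 with dTAG-V1 but in decile 2 or 3 untreated. SF3A3 was at percentile 86.1 untreated and 93.6 with dTAG-V1, SF3B3 at 75.6 and 93.8, SF3B4 at 84.0 and 90.3, and SNRPB2, the U2 protein B″, at 81.3 and 93.0. The SNRPB2 peak held no SBS or CTCF match at p 1e-05 in either list. SF3B6, which touches the branch point adenosine, was at percentile 76.5 and 82.6, and its untreated summit had a CTCF match 46 bp away. SF3A2 had no untreated promoter peak. Over the 10 U2 genes with peaks in both lists, the percentile of the highest peak was higher with dTAG-V1 in 10. The median difference was 4.89 points. Over all pairs of overlapping promoter peaks it was higher in 72.9%, with a median of 3.33 points. It was higher in 89.3% of the pairs in untreated decile 1 and in 54.9% of those in deciles 2 to 3. The gene values take the highest peak of each list, which need not overlap, so they are not the same measure as the pairs. A percentile depends on every other peak of its list, so that a higher percentile is a change of place and not of signal.

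The U1 genes, which recognise the start of the intron, were spread over the range. SNRPA, the U1 protein A, had 29.9-fold enrichment untreated and 24.7-fold with dTAG-V1, at percentiles 95.5 and 97.8, in a peak shared with ACTMAP. SNRNP70, the U1-70K protein, had 17.2-fold and 6.33-fold at percentiles 92.6 and 91.9. Its untreated peak was 1274 bp wide, at chr19:49084935-49086208, with the summit 241 bp downstream of the canonical start and an SBS1 match of p 4.43e-07 at 4 bp from it. SNRPC, the U1 protein C, was at percentile 83.2 and 87.9. PRPF39 and PRPF40B, which associate with U1, had their highest peaks at percentiles 56.2 and 44.6 untreated and 30.2 and 34.3 with dTAG-V1. That of PRPF40B lay at an alternative start and in the promoter window of MCRS1. Its summits were 55393 bp (untreated) and 55420 bp (dTAG-V1) upstream of the canonical start. Near the canonical start, PRPF40B had only the weak untreated peak described below. By the highest peak of each gene, 2 U1 genes of 6 stood higher with dTAG-V1 and 4 stood lower. Over the 45 members with both peaks, 31 stood higher and 14 lower on the same measure. Over all pairs of overlapping promoter peaks, which is another measure, 72.9% were higher.

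Sm genes, whose products form the ring on U1, U2, U4 and U5 RNA, split in the same way by their highest peaks, with 3 of 7 higher and 4 lower. SNRPD3 ranked 328 untreated with 29.5-fold enrichment and 967 with dTAG-V1 with 19.9-fold enrichment, in a peak shared with GUCD1. SNRPE had 20.9-fold and 9.46-fold at percentiles 92.8 and 94.5. SNRPB was at percentile 84.4 and 86.2, and SNRPD1 at 76.7 and 75.0. The lower peaks were those of SNRPG at 59.4 and 47.0, and SNRPF at 46.5 and 22.8. SNRPD2 had a weak peak at its start in each list, at percentiles 41.9 and 45.9, and a second one with dTAG-V1 only, described below. SNRPN, a neuronal relative of SNRPB in an imprinted region, had none.

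Of the minor spliceosome genes, which serve a rare class of introns, SNRNP48 had 24.0-fold enrichment untreated and 8.17-fold with dTAG-V1, at percentiles 93.0 and 94.5. SNRNP35 stood at 72.8 and 88.2, and SNRNP25, in a peak shared with POLR3K, at 80.2 and 51.8. PRPF19 had 24.3-fold and 24.1-fold at percentiles 95.1 and 98.2. LSM10, of the U7 particle, had the largest untreated enrichment of the members, at 34.8-fold, and 27.9-fold with dTAG-V1, with the summit at the same base. Of the U6 ring, LSM5 had 18.6-fold and 8.91-fold at percentiles 90.6 and 94.4, and LSM3, which shares its peak with XPC, was at 71.6 and 82.5. The other ring genes with both peaks stood lower with dTAG-V1. LSM7 went from percentile 80.8 to 48.2, LSM8 from 66.4 to 24.9, LSM2 from 72.6 to 49.6 and LSM4 from 61.8 to 45.9. The summits of the 2 lists were 229 bp apart at LSM7, 585 bp at LSM8, 189 bp at LSM2 and 568 bp at LSM4. The percentiles of these genes thus belong to different positions.

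Promoters shared between neighbouring genes were common among the members. Of the untreated member peaks, 17 of 50 (34.0%, 22.4 to 47.8) lay in the promoter windows of at least 2 protein-coding genes, against 19.0% of all promoter peaks. With dTAG-V1 it was 21 of 58 (36.2%, 25.1 to 49.1), against 16.1%. At such promoters, the peak cannot be assigned to the member rather than to its neighbour.

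Most member peaks of the untreated list were found again with dTAG-V1. An overlap of at least 1 bp was present for 48 of 50 (96.0%, 86.5 to 98.9), against 84.2% of all untreated promoter peaks. The pair not found again were both weak. In PRPF40B, a peak 540 bp upstream of the canonical start had 2.51-fold enrichment at percentile 11.6. In LSM14A, a peak in an intron 1020 bp downstream of the start had 2.08-fold enrichment at percentile 26.8, with the CTCF match shown above 4 bp and an SBS2 match 12 bp from its summit. LSM14A also had a peak at its start, at percentile 88.1 untreated and 92.8 with dTAG-V1.

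Conversely, 10 of 58 dTAG-V1 member peaks overlapped no untreated peak (17.2%, 9.64 to 28.9), against 37.4% of all dTAG-V1 promoter peaks. When an overlap had to cover 50% of each peak, the share was 29.3%, against 49.3%. Of these, 7 lay at the 6 members without an untreated peak. SNRNP27, a tri-snRNP protein, stood out, with 5.35-fold enrichment at percentile 83.7 and a summit 76 bp upstream of its start. The others were low: LSM1 with 2.43-fold at percentile 31.5, LSM6 with 2.69-fold at 29.1, LSM14B with 2.91-fold at 29.1, and PRPF4B with 1.78-fold at 2.73. SF3A2 had 2 such peaks, with 2.61-fold and 2.98-fold at percentiles 28.7 and 45.0. None of these 7 peaks held an SBS match or a CTCF match at p 1e-05. Over all dTAG-V1 promoter peaks, 39.0% held such an SBS match and 25.2% such a CTCF match. At p 5e-05, the peaks of LSM1, LSM6, LSM14B, PRPF4B and SNRNP27 held an SBS match. The other 3 of the 10 were second peaks, at SNRPD2, SNRPA1 and SF3B3, and each held a CTCF match at p 1e-05. At SNRPD2 the match was 15 bp from a summit 1568 bp upstream of the start (4.22-fold, percentile 76.9), with an SBS match 11 bp from that summit. At SNRPA1 it was 4 bp from an intronic summit (2.47-fold, percentile 31.5), and at SF3B3 142 bp away (2.21-fold, percentile 7.31).

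For members without a promoter peak, the nearest peak was near the edge of the window at some and far at others. LSM12 had an untreated peak centred 3074 bp upstream of its nearest start, at percentile 78.0, and a dTAG-V1 peak 1187 bp downstream, at percentile 30.7, just outside the window. PRPF4B had an untreated peak 2698 bp upstream, at percentile 75.3. For LSM11, the nearest peaks were 12368 bp and 12322 bp upstream. For SNRPN they were 484258 bp and 484230 bp downstream, and for the other members without an untreated peak from 13702 bp to 80317 bp away.

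Summits lay close to transcription start sites. Of the untreated member peaks, 48 of 50 (96.0%) had their centre within 500 bp of an annotated start, against 81.8% of all promoter peaks, and with dTAG-V1 52 of 58 (89.7%) against 73.7%. Relative to the canonical start, 29 of the 50 untreated summits lay up to 250 bp upstream, 10 up to 250 bp downstream, 5 farther upstream and 3 farther downstream within 2 kb, and 3 lay beyond 2 kb, at alternative starts. With dTAG-V1 the counts were 29, 10, 9, 5 and 5 of 58. The median position within 2 kb was 58 bp upstream untreated and 66 bp upstream with dTAG-V1.

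**Figure D3:**
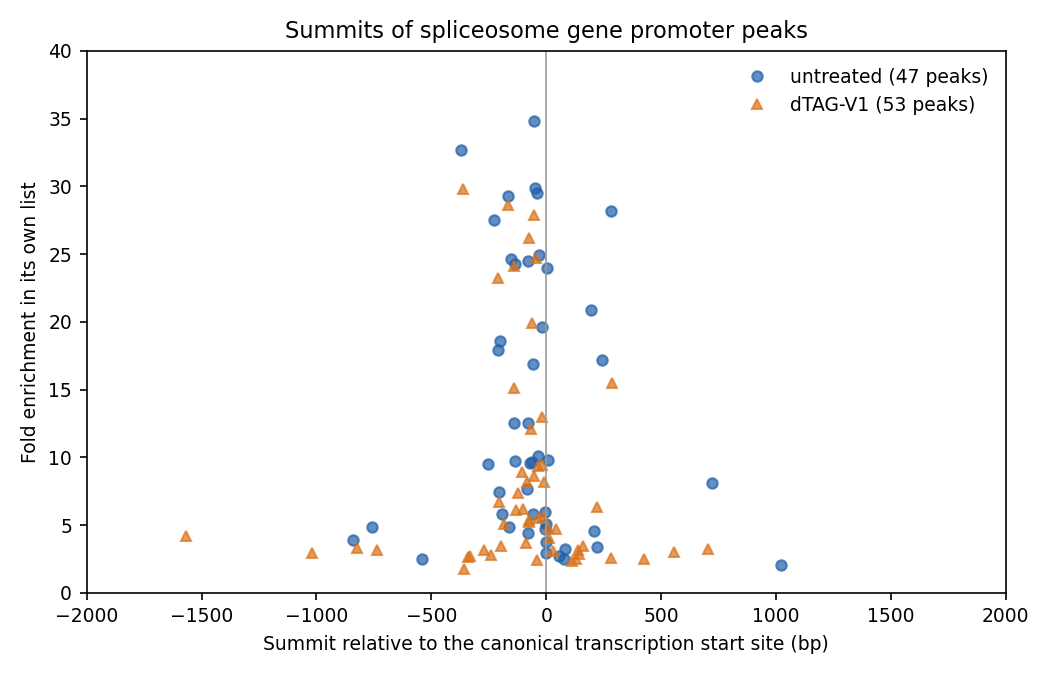
Summit position of member promoter peaks relative to the canonical transcription start site (horizontal axis, bp, negative upstream) against fold enrichment in the peak's own list (vertical axis). Peaks within 2 kb are plotted, 47 untreated (circles) and 53 dTAG-V1 (triangles), and the highest peaks, such as LSM10 at 34.8-fold and 27.9-fold, lie near the start in each list.

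A match to an SBS matrix at p 5e-05 was found in 44 of 50 untreated member peaks (88.0%, 76.2 to 94.4), against 78.3% of all untreated promoter peaks. In the dTAG-V1 list it was found in 53 of 58 (91.4%, 81.4 to 96.3), against 66.7%. A match at this threshold was thus common in promoter peaks of any kind, and a stricter measure was added after the data had been examined, a match at p 1e-05 within 50 bp of the summit. It was met by 18 of 50 untreated member peaks (36.0%, 24.1 to 49.9), against 35.9%, and by 13 of 58 dTAG-V1 member peaks (22.4%, 13.6 to 34.7), against 20.7%. On this measure the members' shares, over all deciles together, were close to those of promoter peaks at large. At like score they were not, as given by decile below. CTCF matches at p 5e-05 were in 33 untreated member peaks (66.0%, 52.2 to 77.6), against 49.0%, and in 38 with dTAG-V1 (65.5%, 52.7 to 76.4), against 51.8%. Within 50 bp of the summit and at p 1e-05 they were in 4 (8.0%, 3.15 to 18.8), against 7.54%, and in 6 (10.3%, 4.83 to 20.8), against 13.0%. Wider peaks offer more positions for a match, and member peaks were wider at the median, as given above. The shares counted over the whole peak, for SBS and for CTCF, were not matched for width. Anywhere in the peak, a CTCF match at p 1e-05 was in 14 untreated member peaks (28.0%, 17.5 to 41.7), against 21.0% of all promoter peaks, and in 16 with dTAG-V1 (27.6%, 17.8 to 40.2), against 25.2%. The 14 were those at the starts of LSM2, LSM4, LSM10, PRPF6, PRPF38B, PRPF39, SF3A3, SF3B1, SF3B2, SF3B6, SNRPB and SNRPE and the intronic ones of LSM14A and PRPF8.

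Strict SBS matches near the summit were concentrated at the strongest peaks. They were in 12 of 17 untreated member peaks of decile 1 (70.6%), 3 of 17 in deciles 2 to 3 (17.6%) and 3 of 16 in deciles 4 to 10 (18.8%). Over all promoter peaks the shares were 90.2%, 36.2% and 16.2%. Decile 1 held 34.0% of the untreated member peaks, against 20.6% of all untreated promoter peaks. In decile 1 and in deciles 2 to 3, a smaller share of member peaks had such a match, a difference that was not tested. The 5 member peaks of decile 1 without one were those of PRPF38B, with a strict match 75 bp from the summit, PRPF4 at 109 bp, SF3B1 at 361 bp, SNRNP40 at 363 bp, and LSM5 with no strict match. Of the 18 matches, 9 were on the strand of the gene and 9 on the opposite strand, and 11 lay upstream and 7 downstream of the canonical start. SBS1 gave the nearest match in 12 and SBS2 in 6.

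**Figure D4:**
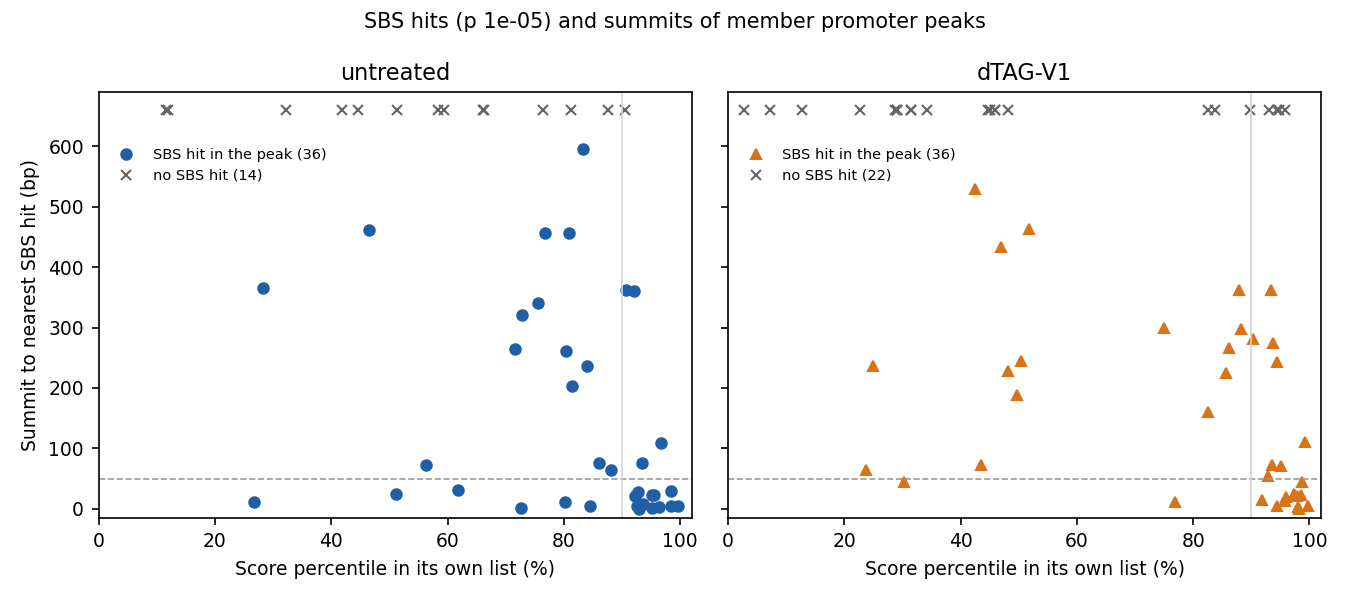
Distance from the summit to the nearest SBS match at p 1e-05 (vertical axis, bp) against the score percentile of the peak (horizontal axis) for member promoter peaks of the untreated list (left) and the dTAG-V1 list (right). Crosses in a row at the top are peaks without such a match (14 and 22), the dashed line marks 50 bp and the vertical line the 90th percentile, above which 12 of 17 untreated peaks lie under the dashed line.

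Where the peaks of both lists overlapped, the summits coincided at the strong promoters and lay farther apart at the weaker ones. Over the 48 member pairs the median distance between summits was 25 bp, against 27 bp over 6484 pairs at all promoters. For the 17 pairs of untreated decile 1 the median was 5 bp and 15 pairs (88.2%) were within 50 bp, against 97.2% of all promoter pairs of that decile. In deciles 2 to 3 the median was 29 bp, with 12 of 17 pairs (70.6%) within 50 bp, against 26 bp and 68.6%. In deciles 4 to 10 it was 67 bp, with 5 of 14 pairs (35.7%) within 50 bp, against 43.5%.

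The SBS matches at the summit followed this division. In decile 1, 12 member pairs had a strict SBS match within 50 bp of the untreated summit, and in 11 of them (91.7%, 64.6 to 98.5) the dTAG-V1 summit had one too, against 98.3% over all promoters. The exception was SNRPE, whose summit was 196 bp downstream of the start untreated and 19 bp upstream of it with dTAG-V1, 243 bp from the nearest strict match. In deciles 2 to 10, 5 member pairs had such a match at the untreated summit, and in 0 of these (which allows up to 43.4%) did the dTAG-V1 summit have one, against 47.3% over all promoters. For SNRPB the summit moved from 255 bp upstream of the start, 4 bp from the SBS match, to 8 bp downstream. The summit of SNRNP25 moved from 204 bp to 822 bp upstream, and that of LSM4 from 840 bp to 272 bp upstream. LSM2 had its untreated summit 6 bp upstream of the start with an SBS1 match 1 bp away, and its dTAG-V1 summit 195 bp upstream with a CTCF match 33 bp away. In the intron of PRPF8, the summits were 41 bp apart. The SBS match was 24 bp from the untreated and 65 bp from the dTAG-V1 summit, and a CTCF match was 53 bp and 12 bp from them. All these pairs were chosen by the untreated summit, so the dTAG-V1 summit could only keep or lose the match. The reverse choice was not counted. PRPF39 went the other way, with its nearest strict SBS match 73 bp from the untreated summit and 44 bp from the dTAG-V1 summit. The 50 bp limit was set after the data had been examined, and 5 pairs are too few to set against the share over all promoters. How precisely a summit is placed in a weak peak was not tested.

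**Figure D5:**
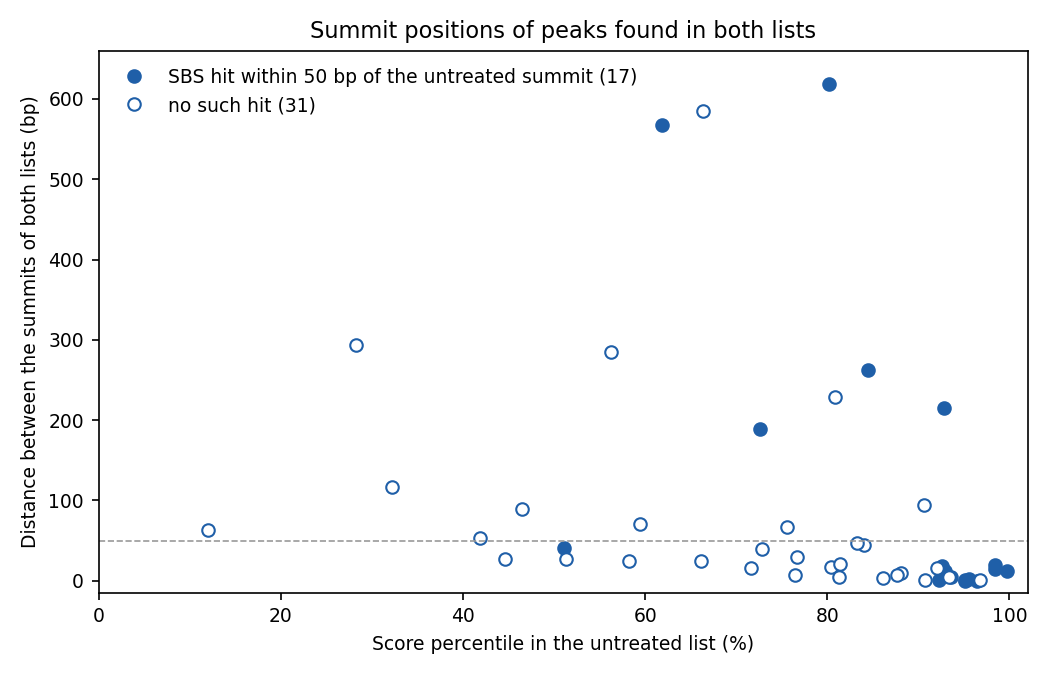
Distance between the summits of overlapping untreated and dTAG-V1 member peaks (vertical axis, bp) against the score percentile in the untreated list (horizontal axis), for 48 pairs. Filled circles are the 17 pairs with an SBS match at p 1e-05 within 50 bp of the untreated summit and open circles the others, and the dashed line marks 50 bp, under which 15 of the 17 pairs of decile 1 lie.

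The place of a member peak in its list moved with its strength. Among the 17 pairs of untreated decile 1, the percentile was higher with dTAG-V1 in 15 (88.2%), against 89.3% of all promoter pairs of that decile. In deciles 2 to 3 it was higher in 12 of 17 (70.6%, against 54.9%), and in deciles 4 to 10 in 4 of 14 (28.6%, against 73.2%). In that last group, the median percentile of the members went from 51.2 to 43.0, while that of all promoter pairs went from 37.1 to 50.5. The members of this group started higher within it than promoter peaks at large, and the dTAG-V1 list is longer, so these percentiles are set side by side and not compared as signal.

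The promoters of the members were also searched whether or not they held a peak. RefSeq promoter sequences were used (GRCh38.p14, 250 bases before to 50 after the start). These were given for 44 of the 54 members and 15812 protein-coding genes in all. The SBS and CTCF matrices were learned from these same peak lists, so matrix matches here are not independent of the peaks. An SBS match at p 1e-05 on either strand was in 20 of 44 (45.5%, 31.7 to 59.9), against 31.3% of all, and an SBS2 match in 10 of 44 (22.7%, 12.8 to 37.0), against 10.3%. The 10 were LSM10, PRPF19, PRPF4, SF3A3, SF3B2, SNRNP200, SNRNP25, SNRNP48, SNRPA and SNRPD2. The letters ACTACA with TCCCA after a gap of 2 bases, on either strand, were in the promoters of PRPF19, PRPF4 and SF3B2 (6.82%, 2.35 to 18.2), against 2.14%. Shorter SBS letters were closer to the share of all promoters. ACTACA alone was in 5 of 44 (11.4%, 4.95 to 24.0), against 8.51%. TTCCCAG was in 6 of 44 (13.6%, 6.4 to 26.7), against 11%. The intervals for ACTACA alone and for TTCCCAG included the share of all promoters. A CTCF match at p 1e-05 was in 7 of 44 (15.9%, 7.93 to 29.4), against 14.7%. The letters ACTTCCGG, which contain the core bound by transcription factors of the ETS family and share the letters TTCC with the SBS1 pattern, were in 12 of 44 (27.3%, 16.3 to 41.8), against 6.2%. These are matches of letters, and binding of any factor there was not measured.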

How the data were processed

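ChIP-seq with the Proteintech ZNF143 antibody was done on 4 untreated and 4 dTAG-V1 samples, and replicates are numbered in the labels. Per the study's methods, the authors aligned read pairs to hg38 with BWA, kept well-mapped proper pairs with SAMtools, removed duplicates with Picard and called narrow peaks with MACS2, off blacklisted regions. They deposited 1 peak list per group. Its columns used here are the peak score, the fold enrichment (a ratio over local background) and −log10 of the q-value as the authors' peak caller wrote them, and the summit offset. Per the methods, untreated peaks were kept when present in all 4 samples and dTAG-V1 peaks when present in any; the files do not state whether the deposited rows follow this. Depth per sample is unknown, and no sample's column was left unused (0).

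Genes and starts came from GENCODE release 44 on hg38, of the files' build. Peaks were assigned to a gene when their centre lay from 2000 bp upstream to 1000 bp downstream of any start. Peaks were matched between the lists by an overlap of at least 1 bp. Ranks used −log10 q, with ties at the lowest rank, and percentiles used the score. SBS1, SBS2 and CTCF matrices were learned from the peaks of odd-numbered autosomes in 10 rounds, starting from patterns around TTCCCA, around ACTACA with TCCCA, and around the CTCF core with at most 2 mismatches, with a pseudocount of 0.8, from 1931, 1641 and 3915 sites. A match is a hit at p 5e-05 per position and strand, or p 1e-05 where stated. Matrix learning and peak overlap were tested on simulated data. Named genes were the members with a decile 1 peak, those with a peak in 1 list only, those with none, those with a CTCF match at p 1e-05, and SNRNP70, with the others given by their percentiles. The values of 1 member are not reported here, although it is in the counts. The members, lists and role groups were chosen with earlier results of these data known. Alternatives were narrower windows, the canonical start, summit positions, a minimum of 5 for −log10 q, 50% overlap, and other motif rules. The 6 CTCF samples were not analysed here. Computations used samtools 1.23.1 and, under Python 3.11.15, the packages pysam 0.24.0, pandas 2.3.3, numpy 2.4.6, matplotlib 3.10.9 and scipy 1.17.1.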

Additional observations from a re-analysis of the deposited data

How the results depend on the processing

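The 10 counts, shares and medians of member peaks were recomputed under the alternatives, in 60 values, of which 44 stayed within the 95% interval of the share or median reported (for counts of genes, within 1.5 times) and 16 did not. Windows of 500 bp, the canonical start only, summit positions and a −log10 q of at least 5 left all 10 within these limits. With an overlap of 50% of each peak, 82.0% of untreated member peaks were found again (all promoter peaks 67.9%) and 29.3% of dTAG-V1 member peaks lacked an untreated peak (49.3%). The motif shares moved most. The share with an SBS match became 72.0% untreated and 62.1% with dTAG-V1 at p 1e-05 (all promoter peaks 52.4% and 39.0%), 70.0% and 55.2% within 100 bp of the summit (62.9% and 44.8%), and 28.0% and 22.4% with fixed letters at most 1 mismatch away (21.7% and 15.4%). With the measure added after the data were examined, at p 1e-05 within 50 bp of the summit, it was 36.0% and 22.4% (35.9% and 20.7%). The share with a CTCF match became 28.0% and 27.6% at p 1e-05 (21.0% and 25.2%), 28.0% and 29.3% within 100 bp of the summit (27.8% and 31.8%), and 8.0% and 10.3% with the added measure (7.54% and 13.0%). The rule that a match counts only near the summit or above a higher score is itself what removes matches. The lists hold no values per replicate, so leaving out a replicate was not possible. No paired analysis was possible because each list pools its 4 samples. The unknown depth limits what can be said of members without a peak, which were below the peak caller's threshold and not shown to be unbound.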
